A study of Mus musculus with 24 samples.

Results

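The 5 enzymes of the urea cycle, Cps1, Otc, Ass1, Asl and Arg1, were taken by symbol from the 35974 genes of a mouse liver RNA-seq table, and all 5 have a row in it. The table holds 24 libraries, 12 labelled transgenic (TGA) and 12 labelled wild type (WT), both of strain C3H/HeJ. Library titles add a number (1 to 4) and end in 2, 4 or 8, which is called class 2, class 4 and class 8 here, so that genotype and class form 6 groups of 4 libraries: TGA class 2, TGA class 4, TGA class 8, WT class 2, WT class 4 and WT class 8. The labels name neither the transgene, its promoter and the cells that express it, nor the age of the mice, and they leave the ending unexplained. The series title speaks of polyploid hepatocytes in chronic liver disease, so a reading of the class as ploidy rests on the title alone. The RNA came from a kit meant for fixed, paraffin-embedded tissue. The labels do not tie the 4 libraries of a group to separate animals, so every p-value below measures only how far these libraries differ among themselves, and that spread may be technical.

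The urea cycle turns ammonia from amino acid breakdown into urea, which the kidney excretes, and the complete cycle runs mainly in hepatocytes, most of all in those near the portal vein. Its opening steps lie in the mitochondrion, where Cps1 (carbamoyl phosphate synthetase) joins ammonia to bicarbonate and Otc (ornithine transcarbamylase) makes citrulline. The later steps lie in the cytosol, where Ass1 (argininosuccinate synthase) adds aspartate, Asl (argininosuccinate lyase) releases arginine and fumarate, and Arg1 (arginase) splits arginine into urea and ornithine, which returns to the mitochondrion.

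All values below are log2(normalised count + 1), converted from the deposited natural-log values. The values do not show whether an exact 0 is an absent transcript, a low level or a failed estimate, so such a gene is said to be listed at 0. Between 1624 and 15147 genes were above 0 per library, and 4 libraries with more than 7000 stood apart: TGA number 3 of class 8, WT numbers 1 and 4 of class 2, and WT number 1 of class 4. The median number of genes above 0 was 4328.5, 2650.5 and 2788.5 in TGA classes 2, 4 and 8, and 5102, 3411 and 3175 in WT classes 2, 4 and 8. The sequencing depth is unknown, and levels are not compared between genes because the values are not scaled to transcript length.

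Liver identity was checked with 18 hepatocyte marker genes, and none of them was at 0 throughout. The HDL protein Apoa1 and the iron carrier Trf were above 0 in 12 of 12 TGA and 12 of 12 WT libraries, and albumin (Alb) in 12 TGA and 7 WT libraries. Others were sparser: Apob was above 0 in 10 TGA and 6 WT libraries, and Ttr in 7 and 4. The share of the 18 markers above 0 differed between libraries. In TGA classes 2, 4 and 8 it ranged from 83.3% to 100%, 44.4% to 66.7% and 44.4% to 88.9%. In WT classes 2, 4 and 8 it ranged from 33.3% to 100%, 16.7% to 100% and 22.2% to 72.2%. Genes that mark other cell types were sparse. None of the macrophage, lymphocyte, neutrophil or erythroid markers had enough values to be tested, and 2 of 12 endothelial, 1 of 10 stellate cell and 1 of 7 cholangiocyte markers did. Among those at 0 in all libraries were the macrophage genes Vsig4, Timd4, C1qa and Cd5l and the globin genes Hba-a1, Hba-a2, Hbb-bs and Hbb-bt.

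Of the urea cycle enzymes, Cps1 was above 0 in 19 of the 24 libraries, Ass1 in 18, Asl in 13, Arg1 in 13 and Otc in 0. Cps1 was higher in TGA than in WT libraries on the mean over the classes, and Asl was lower in class 4 than in class 2. At the settings described here, these were the only differences of the 4 tested enzymes that passed an adjusted p of 0.05 among the 15 comparisons made. In TGA class 2, 4 enzymes were above 0 together in every library, and in WT class 4 the number was 4 in number 1, 1 in number 3, and 0 in numbers 2 and 4.

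**Figure D1:**
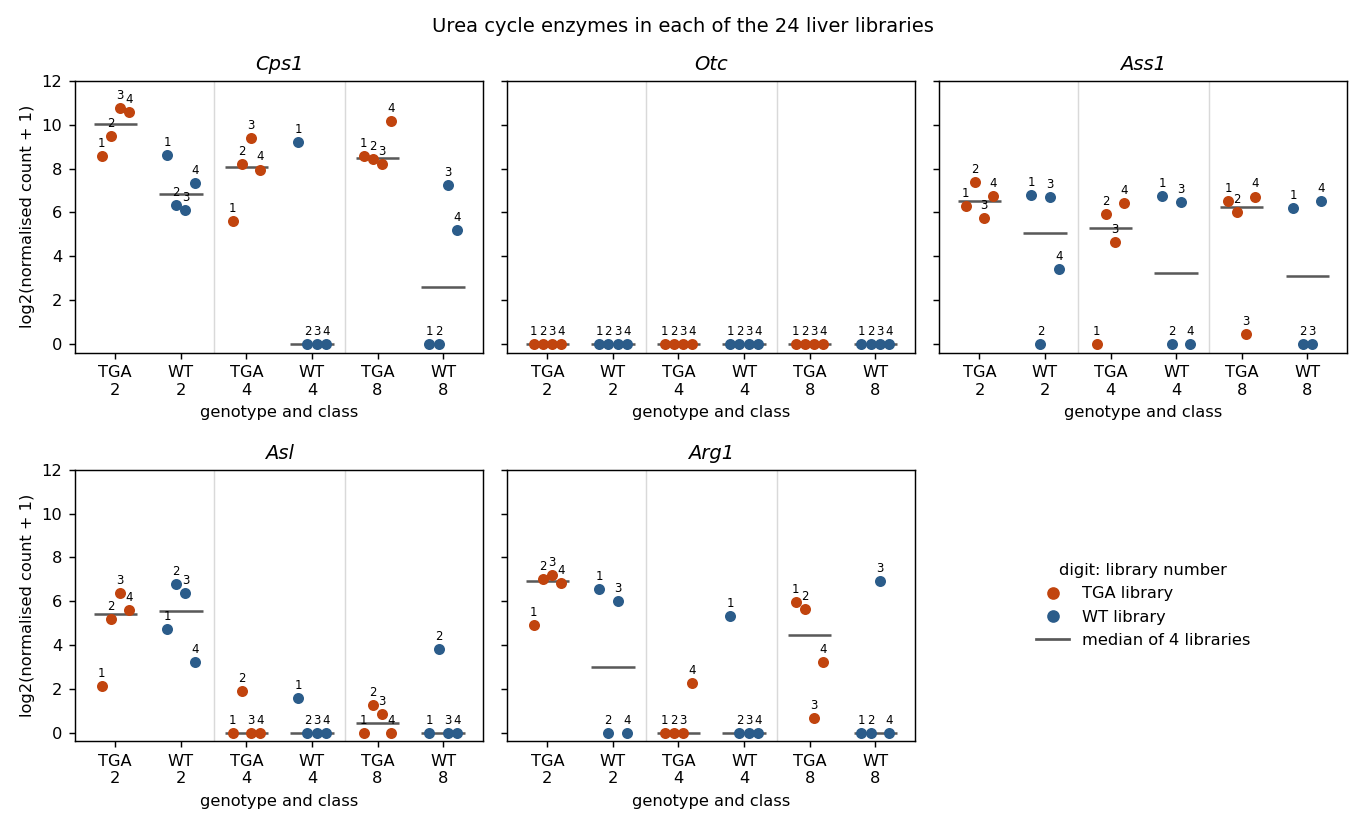
Level of each urea cycle enzyme as log2(normalised count + 1), plotted for the 6 groups of genotype and class. Points are libraries with their number beside them and lines are medians of 4. Cps1 is above 0 in 12 of 12 TGA libraries and 7 of 12 WT libraries, Otc is at 0 throughout, and Asl reaches 1.90 at most in class 4.

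Cps1, which commits ammonia to the cycle, was detected in every TGA library. In TGA class 2 it had values of 8.60, 9.50, 10.75 and 10.60 in numbers 1 to 4, in TGA class 4 of 5.61, 8.23, 9.40 and 7.96, and in TGA class 8 of 8.56, 8.45, 8.19 and 10.17. In WT class 2 it had values of 8.60, 6.32, 6.09 and 7.36, in WT class 4 of 9.22, 0, 0 and 0, and in WT class 8 of 0, 0, 7.26 and 5.18. No TGA library was listed at 0, against 3 of 4 in WT class 4 and 2 of 4 in WT class 8. WT class 4 numbers 2, 3 and 4 and WT class 8 number 1, all with Cps1 at 0, also differed in scale. Their highest value over all genes was 15.4 to 15.5, against 16.4 in the other 20 libraries. The part of this in the Cps1 difference was not tested. The group medians ran from TGA class 2 (10.05) through TGA class 8 (8.50), TGA class 4 (8.09), WT class 2 (6.84) and WT class 8 (2.59) to WT class 4 (0), and the ranges of neighbours in that order overlapped in every case.

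The genotypes were compared on the mean of the 3 classes for each genotype and number, 4 means against 4. Cps1 had means of 7.59, 8.73, 9.45 and 9.58 for TGA numbers 1 to 4, against 5.94, 2.11, 4.45 and 4.18 for WT numbers 1 to 4. The lowest TGA mean lay above the highest WT mean, and 0.944% of all genes tested showed such a separation with TGA higher. Cps1 rose in TGA by 4.66 (SE 0.97, limma adjusted p = 0.00222), 1 of 4 members called against 0.492% of all 4875 genes tested. The SE from the gene's own 8 means was 0.911. The two-sided exact permutation p was 0.0286, the smallest that 70 assignments can give, and 0.588 after adjustment over all genes. The call was also lost when all genes above 0 in any library were tested (adjusted p = 0.110). Without the 4 libraries of over 7000 genes the difference was 6.70 (adjusted p = 0.000640).

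Cps1 was higher in TGA on average within each class, though no class passed the threshold alone. In class 2 the difference was 2.77 (SE 1.60, limma adjusted p = 0.634, 0.103% of all genes called). In class 4 it was 5.49 (SE 1.60, limma adjusted p = 0.706, 0.0205% called), with 3 of 4 WT libraries at 0 and the remaining WT library, number 1, at 9.22, inside the TGA range. Without WT number 1 the class 4 difference was 7.80 (adjusted p = 0.00167), and without the 4 libraries of over 7000 genes it was 7.80 (adjusted p = 0.00779). Both settings drop that WT library and leave only WT values of 0 in class 4, so the difference is the TGA mean in each. They were the only 2 of 17 alternatives in which the class 4 difference passed. In class 8 it was 5.73 (SE 1.60, limma adjusted p = 0.168, 0.0205% called), and the groups did not overlap, 8.19 to 10.17 in TGA against 0 to 7.26 in WT, as for 1.62% of all genes with TGA higher. Without the 4 libraries the class 8 difference was 5.95 (adjusted p = 0.0461).

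The hepatocyte markers were also higher in TGA on average over the classes. Of 18 tested, 17 had a positive TGA minus WT difference with a median of 1.66, against 54.7% positive and a median of 0.11 over all genes tested. Alb, Apoa1, Serpina1e and Trf passed the threshold, all higher in TGA. By class, the positive differences numbered 18 of 18 in class 2 (median 3.97), 11 of 18 in class 4 (median 0.36) and 15 of 18 in class 8 (median 2.31). Of all genes tested, 53.7%, 41.4% and 52.6% were positive in classes 2, 4 and 8. The differences of Cps1 were 2.77, 5.49 and 5.73 in the same order. The summed level of the 18 genes ranged from 14.7 to 15.2 in TGA class 2, 11.8 to 14.5 in TGA class 4 and 11.6 to 15.0 in TGA class 8, against 10.9 to 13.7, 10.2 to 14.5 and 10.4 to 11.6 in WT classes 2, 4 and 8. The part of these genes in the Cps1 difference was not tested. In bulk RNA, fewer cells of a type and less RNA per cell cannot be told apart.

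The difference of Cps1 between classes did not pass the threshold. Class 4 differed from class 2 by -3.43 (SE 1.13, limma adjusted p = 0.187) and class 8 from class 2 by -2.50 (SE 1.13, limma adjusted p = 0.619), over both genotypes. Without WT number 1 the class 4 difference was -4.33 with an adjusted p of 0.0190. Class 4 against class 2 gave -2.07 in TGA (limma adjusted p = 0.568) and -4.79 in WT (limma adjusted p = 0.924), and the difference between these class effects, TGA minus WT, was 2.72 (SE 2.27, limma adjusted p = 0.928). For class 8 against class 2 it was 2.96 (SE 2.27, limma adjusted p = 0.999).

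Otc, the mitochondrial partner of Cps1 in citrulline synthesis, was listed at 0 in all 24 libraries, TGA and WT alike. It could not be tested. Of all genes listed, 14584 (40.5%) were at 0 throughout, whereas none of the 18 hepatocyte markers did. Slc25a2 (an ornithine carrier), Arg2 (the mitochondrial arginase) and Fgf21 (a fasting hormone) were the other genes of the pathway lists in that state. An Otc level cannot be read from these values.

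Ass1, which binds citrulline to aspartate, was above 0 in 11 of 12 TGA and 7 of 12 WT libraries. In TGA class 2 it had values of 6.30, 7.38, 5.76 and 6.75 in numbers 1 to 4, in TGA class 4 of 0, 5.94, 4.65 and 6.44, and in TGA class 8 of 6.51, 6.02, 0.45 and 6.73. In WT class 2 it had values of 6.79, 0, 6.71 and 3.42, in WT class 4 of 6.76, 0, 6.46 and 0, and in WT class 8 of 6.20, 0, 0 and 6.52. The highest value was 7.38 in TGA and 6.79 in WT, and 1 TGA library was at 0, against 5 WT libraries. WT number 2 was at 0 in all 3 classes.

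No comparison of Ass1 passed the threshold. TGA exceeded WT by 1.67 (SE 1.11, limma adjusted p = 0.620). Class 4 differed from class 2 by -1.61 (SE 1.32, limma adjusted p = 0.584), class 8 from class 2 by -1.33 (SE 1.32, limma adjusted p = 0.863) and class 8 from class 4 by 0.27 (SE 1.32, limma adjusted p = 0.969). The group medians ran from TGA class 2 (6.52) to WT class 8 (3.10), and neighbouring groups overlapped throughout.

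Asl, which yields the arginine that Arg1 cleaves, was low or at 0 in most libraries of classes 4 and 8, in TGA and WT alike. In class 4 it had values of 0, 1.90, 0 and 0 in TGA numbers 1 to 4 and of 1.58, 0, 0 and 0 in WT numbers 1 to 4. In class 8 it had values of 0, 1.24, 0.83 and 0 in TGA and of 0, 3.82, 0 and 0 in WT. In class 2 it had values of 2.12, 5.19, 6.38 and 5.61 in TGA and of 4.71, 6.78, 6.38 and 3.22 in WT. Libraries at 0 numbered 6 of 8 in class 4 and 5 of 8 in class 8, against 0 of 8 in class 2.

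Asl fell in class 4 against class 2 by 4.61 (SE 0.94, limma adjusted p = 0.0214), the only member among the 0.308% of all genes called in that comparison, all of them lower. Asl reached the filter's deposited value of 1 in all 8 class 2 libraries, and in too few of the others to pass without them. It was thus tested only through the class in which it was high, so the call is not independent of the filter. The 8 class 4 libraries (0 to 1.90) did not overlap the 8 class 2 libraries (2.12 to 6.78), as for 0.0615% of all genes with class 4 lower, 3 genes in number. The commonest value above 0 in a library ran from 1.75 to 4.44 in TGA class 4 and from 0.083 to 3.90 in WT class 4. In class 2 it ran from 0.66 to 2.04 in TGA and from 0.083 to 3.81 in WT. Lower values did occur, such as the Asl value of 1.90 in TGA class 4 number 2, where the commonest was 4.44. The part of these levels in the Asl difference was not tested. The two-sided exact permutation p, with class labels exchanged within genotype, was 0.000408, the smallest that 4900 assignments can give, and 0.318 after adjustment over all genes. The call did not hold without TGA number 2 (adjusted p = 0.0842), TGA number 3 (0.129), TGA number 4 (0.0615), WT number 2 (0.0889) or WT number 3 (0.0938), with differences between -4.99 and -4.28 when any number was left out, nor with all genes tested (0.0511). With each library centred on its mean, the median of all genes in this comparison went from -0.23 to 0.09. Asl then differed by -4.29 (adjusted p = 0.0448). Without the 4 libraries of over 7000 genes it differed by -5.46 (adjusted p = 0.00393).

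The class 4 difference of Asl was of similar size in the genotypes. It was -4.35 in TGA (SE 1.34, limma adjusted p = 0.0989, 0.841% of genes called) and -4.88 in WT (SE 1.34, limma adjusted p = 0.924, 0% called; an unadjusted p under 0.05 was reached by 83 genes upward and 143 downward). The groups did not overlap in either genotype, as for 6.4% of genes in TGA and 0.574% in WT. The difference between the genotypes in this class effect, TGA minus WT, was 0.52 (SE 1.89, limma adjusted p = 0.988), an SE too wide to show that they were equal.

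Class 8 against class 2 gave an Asl difference of -4.31 (SE 0.94, limma adjusted p = 0.0607, 0.0205% of genes called), short of the threshold. The groups overlapped through WT number 2 of class 8 (3.82), which lay above the lowest values of class 2. Within genotypes the difference was -4.31 in TGA (limma adjusted p = 0.238), where the groups did not overlap, as for 2.56% of genes, and -4.32 in WT (limma adjusted p = 0.796). Class 8 differed from class 4 by 0.30 (SE 0.94, limma adjusted p = 0.956). Between the genotypes Asl differed by -0.27 (SE 0.94, limma adjusted p = 0.945), with 7 of 12 TGA and 6 of 12 WT libraries above 0.

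**Figure D2:**
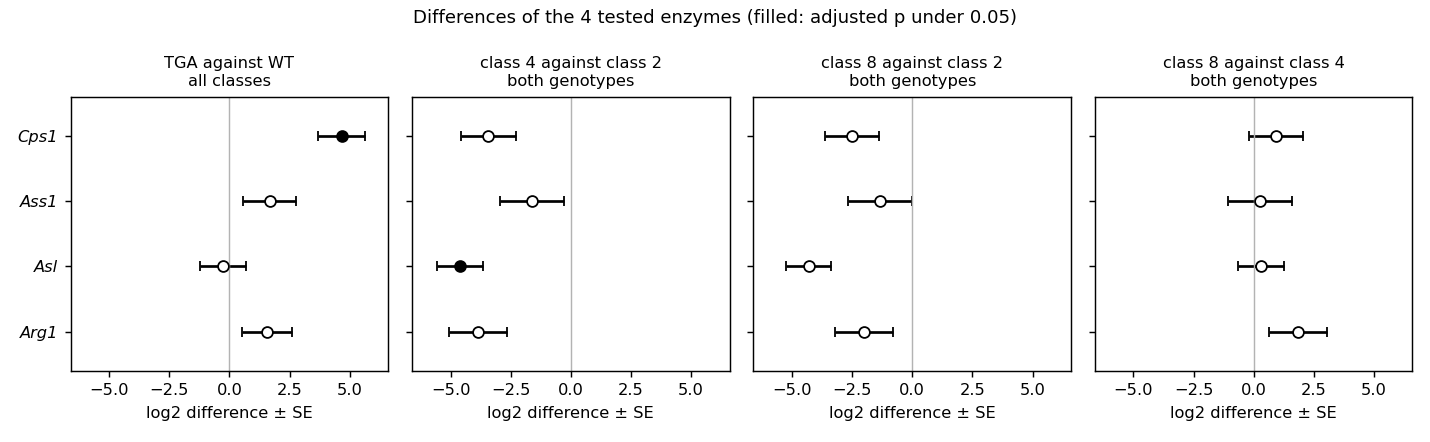
Log2 difference with its SE for the 4 tested enzymes in the 4 comparisons over all libraries, filled where the adjusted p is under 0.05. Cps1 is filled for TGA against WT (4.66) and Asl for class 4 against class 2 (-4.61), while the differences between class 8 and class 4 lie between 0.27 and 1.85.

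Arg1, which releases urea, was above 0 in 9 of 12 TGA and 4 of 12 WT libraries. In TGA class 2 it had values of 4.93, 7.0, 7.21 and 6.84 in numbers 1 to 4, in TGA class 4 of 0, 0, 0 and 2.26, and in TGA class 8 of 5.98, 5.64, 0.66 and 3.23. In WT class 2 it had values of 6.57, 0, 6.0 and 0, in WT class 4 of 5.33, 0, 0 and 0, and in WT class 8 of 0, 0, 6.90 and 0. All 4 libraries were above 0 in TGA class 2 and TGA class 8, against 1 of 4 in TGA class 4, and the WT libraries above 0 lay between 5.33 and 6.90. The 2.26 of TGA class 4 number 4 was the commonest value above 0 in that library, held by 9.42% of its genes above 0. Where counting did not use strand, which the sources used here do not state, reads of Arg1 and of Gm40616, which overlaps it in the GRCm38 annotation, could not be told apart: Gm40616 was above 0 together with Arg1 in 3 libraries and without it in 8.

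No comparison of Arg1 passed the threshold. TGA differed from WT by 1.58 (SE 1.04, limma adjusted p = 0.617). Class 4 differed from class 2 by -3.87 (SE 1.2, limma adjusted p = 0.159), class 8 from class 2 by -2.02 (SE 1.2, limma adjusted p = 0.756) and class 8 from class 4 by 1.85 (SE 1.2, limma adjusted p = 0.788). The class 4 difference was -5.93 in TGA (SE 1.70, limma adjusted p = 0.0776) and -1.81 in WT (SE 1.70, limma adjusted p = 0.999). In TGA the 4 class 4 values lay below the 4 class 2 values, as for 6.4% of all genes. The difference between the genotypes, TGA minus WT, was -4.12 (SE 2.41, limma adjusted p = 0.843). Within class 2, TGA exceeded WT by 3.35 (SE 1.70, limma adjusted p = 0.582), and within class 8 by 2.15 (SE 1.70, limma adjusted p = 0.723).

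By class, 4 enzymes were above 0 together in 1 of 8 libraries of class 4 and 2 of 8 of class 8, against 6 of 8 of class 2. By genotype it was 6 of 12 TGA and 3 of 12 WT libraries. The 4 tested members all had negative differences between class 4 and class 2, with a median of -3.65 against -0.23 over all genes tested, of which 42.2% were positive. Between class 8 and class 2 all 4 were negative too, with a median of -2.26 against -0.16. These comparisons share the class 2 libraries. Between class 8 and class 4 all 4 were positive with a median of 0.61 against 0.06, and neither a member nor any other gene was called (0% of genes; 180 upward and 141 downward reached an unadjusted p under 0.05).

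The enzymes varied together to different degrees over the 24 libraries. Pearson's r was 0.62 for Cps1 with Arg1, 0.48 for Ass1 with Arg1, 0.45 for Cps1 with Ass1, 0.42 for Asl with Arg1, 0.31 for Cps1 with Asl and 0.13 for Ass1 with Asl. Over all pairs of tested genes the median r was -0.004 and the 95th percentile 0.448. After subtracting the 6 group means, Cps1 with Arg1 kept an r of 0.59, and Cps1 with Asl had 0.006. All 13 libraries with Arg1 above 0 also had Cps1 above 0. The libraries share a depth and detection that differ between them, and r with the log2 number of genes above 0 was 0.30 for Cps1, 0.09 for Ass1, 0.25 for Asl and 0.27 for Arg1. After subtracting group means these values were 0.51, 0.07, 0.03 and 0.20 in the same order, and the part of detection in the r of Cps1 with Arg1 was not tested.

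**Figure D3:**
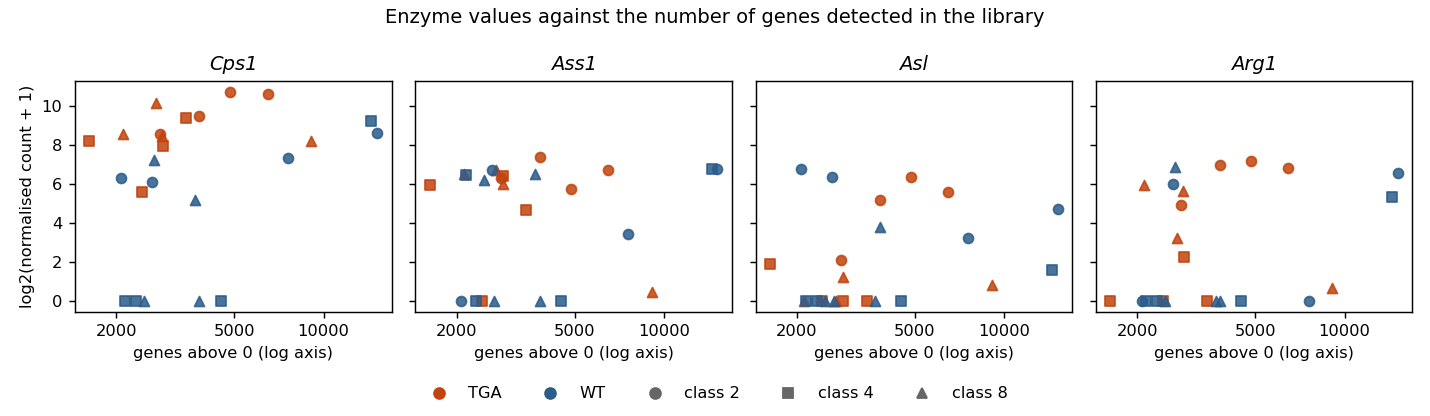
Level of the 4 detected enzymes, as log2(normalised count + 1), against the number of genes above 0 in the library (log axis), with colour for genotype and shape for class. Arg1 is at 0 in the WT class 2 library with 7570 genes above 0, and the WT library of class 4 with 14469 genes above 0 is the only WT class 4 library with Cps1, Asl or Arg1 above 0.

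Among 4874 other tested genes, Fmo1, a flavin monooxygenase, had the pattern most like that of Cps1 (r = 0.92 over 24 libraries, and 0.88 after subtracting group means), followed by Apoa1 (0.76) and the protease inhibitor gene Serpina1e (0.76). Fmo1 was above 0 in 12 of 12 TGA libraries, from 5.47 to 8.89 with a median of 7.82, and in 8 of 12 WT libraries, from 0 to 8.22 with a median of 5.99. Ass1 was most like Hpd (0.73), an enzyme of tyrosine breakdown, then Gpd1 (0.70) and Tle1 (0.69). Asl was most like Nav2 (0.80), Tnip2 (0.77) and Taf15 (0.76), and these values were 0.54, 0.61 and 0.52 after subtracting group means. Arg1 was most like Thrsp (0.85), a gene of fat synthesis, Nat8f2 (0.84) and the protease gene Furin (0.84).

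The genes that supply or use the intermediates of the cycle were taken as 4 lists. Their partners in the mitochondrion and cytosol (13 genes, such as Nags, which makes the activator of Cps1) were sparse: 3 could be tested. Of 21 genes of ammonia and glutamate handling 15 could be tested, of 16 genes of arginine use 3, and of 14 regulators 11. In none of the 15 comparisons did any gene of these lists pass the threshold, so the values that follow describe genes that were not called. Under the alternatives, Slc38a3 (TGA against WT over all classes) and Hnf4a (TGA against WT in class 2) passed it without WT number 1. For class 4 against class 2 in TGA, Prodh passed it without WT number 1 and without the 4 libraries of over 7000 genes, and Glud1 with the replicate block.

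Between TGA and WT, 54.7% of all genes tested had positive differences (median 0.11). In the lists these were 3 of 3 partners, 11 of 15 ammonia and glutamate genes, 1 of 3 arginine genes and 9 of 11 regulators, with list medians of 0.75, 0.18, -0.29 and 1.01. The smallest p-values were those of Klf15, a regulator of amino acid breakdown in fasting, of Slc38a3, a glutamine transporter, of Hnf4a, the hepatocyte nuclear receptor, and of Ppargc1a, a coactivator induced by fasting. Klf15 was above 0 in 9 of 12 TGA libraries, with a median of 5.15, and in 6 of 12 WT libraries, with a median of 0.068, a difference of 2.54 (SE 1.04, limma adjusted p = 0.435). Slc38a3 ran from 0 to 8.56 in TGA with a median of 7.09, and from 0 to 7.78 in WT with a median of 2.15, and differed by 2.58 (SE 1.13, limma adjusted p = 0.468). Hnf4a was above 0 in 8 TGA and 4 WT libraries and differed by 2.08 (SE 0.99, limma adjusted p = 0.526). Ppargc1a went the other way, above 0 in 3 TGA and 8 WT libraries, by -1.10 (SE 0.61, limma adjusted p = 0.587).

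Between class 4 and class 2, 42.2% of all genes tested had positive differences (median -0.23). In the lists these were 0 of 3 partners, 3 of 15 ammonia and glutamate genes, 0 of 3 arginine genes and 1 of 11 regulators, with list medians of -1.05, -1.60, -0.38 and -1.71. The alanine transaminase Gpt2 was above 0 in 4 of 8 class 4 libraries (median 0.87) and 8 of 8 class 2 libraries (median 5.56), a difference of -3.19 (SE 1.07, limma adjusted p = 0.195). The liver glutaminase Gls2 was above 0 in 1 class 4 library and 5 class 2 libraries of 8 each, and differed by -2.63 (SE 0.89, limma adjusted p = 0.195). Glud1, the glutamate dehydrogenase that frees ammonia in the mitochondrion, had a median of 0.87 in class 4 and 7.12 in class 2 and differed by -3.41 (SE 1.28, limma adjusted p = 0.249). Prodh, of proline breakdown, was above 0 in 2 class 4 and 7 class 2 libraries and differed by -3.39 (SE 1.30, limma adjusted p = 0.258).

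Between class 8 and class 2, 43.9% of all genes tested had positive differences (median -0.16). In the lists these were 0 of 3 partners, 4 of 15 ammonia and glutamate genes, 1 of 3 arginine genes and 3 of 11 regulators, with list medians of -0.93, -0.63, -0.61 and -1.09. Slc38a2, an amino acid transporter, was above 0 in 3 class 8 and 8 class 2 libraries and differed by -3.73 (SE 1.15, limma adjusted p = 0.480). Gpt2 differed by -2.71 (SE 1.07, limma adjusted p = 0.485), Gls2 by -2.0 (SE 0.89, limma adjusted p = 0.603) and Klf15 by -2.33 (SE 1.18, limma adjusted p = 0.702). Glud1 had nearly the same median in class 8 (6.75) as in class 2 (7.12). Its class 8 against class 4 difference of 3.33 (SE 1.28, limma adjusted p = 0.718) was the pathway gene difference with the smallest p there, ahead of Nos2 (1.31, adjusted p = 0.718) and Gpt (1.59, adjusted p = 0.733).

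**Figure D4:**
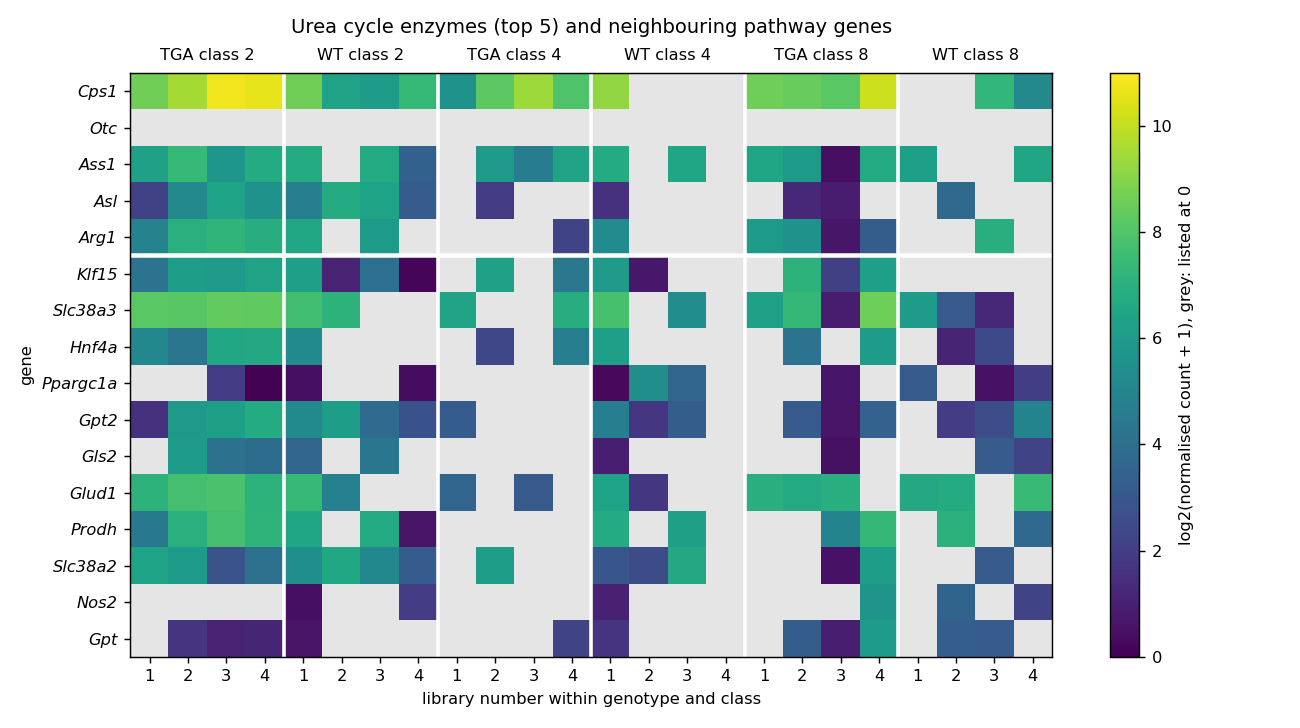
Level of the 5 enzymes and 11 of the named pathway genes in each of the 24 libraries, as log2(normalised count + 1), with grey for genes listed at 0. The columns are ordered by class and, within class, TGA before WT. Class 2 of TGA holds the most coloured cells among the enzymes, 4 in each library, and WT class 4 numbers 2 and 4 have none.

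Hepatocyte zonation genes were set beside the class differences, since the cycle is strongest near the portal vein. Of 13 tested periportal genes, 2 had positive differences between class 4 and class 2 (median -2.34), against 2 of 12 pericentral genes (median -0.93) and 2 of 18 hepatocyte markers (median -1.56). Of all genes tested, 42.2% were positive (median -0.23). Within the genotypes the hepatocyte marker counts were not alike, a difference that was not tested. In TGA 0 of 18 were positive (median -3.15), against 39.9% of all genes tested, and 1, Ttr, was called lower. In WT 9 of 18 were positive (median 0.14), against 48.2% of all genes tested. Asl differed by -4.35 in TGA and by -4.88 in WT. Between class 8 and class 2 the periportal, pericentral and hepatocyte counts were 1 of 13, 5 of 12 and 1 of 18, with medians of -1.58, -0.28 and -2.02. Of all genes tested, 43.9% were positive (median -0.16). Over both genotypes, neither comparison called a gene of these lists. Between TGA and WT, 11 of 13 periportal and 8 of 12 pericentral genes had positive differences, against 54.7% of all genes tested. Pigr, listed as periportal, passed the threshold in the other direction, by -1.61 (limma adjusted p = 0.000622). The summed levels add unlogged values, so the most abundant genes weigh most in them. The summed periportal level was lower in TGA class 2 (12.25 to 12.66) than in WT class 2 (13.04 to 13.80), without overlap. Gene by gene, most of the list went the other way: 11 of 13 periportal genes had positive differences in class 2 (median 2.21). For pericentral genes these were 7 of 12 (median 0.67), against 53.7% of all genes tested. The summed pericentral level was higher in TGA class 2 (9.86 to 11.38) than in WT class 2 (7.93 to 9.52) and TGA class 4 (8.65 to 9.50), without overlap. Within classes 4 and 8 the genotypes overlapped in both sums. Summed levels of the other cell type lists overlapped between all groups, for example 0 to 6.79 in TGA and 0 to 4.85 in WT for endothelial genes in class 4, except that stellate cell genes ranged from 2.22 to 5.64 in WT class 4 and from 0 to 1.75 in WT class 2. The part of zonation, cell mixture or detection in the Cps1 and Asl differences was not tested.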

How the data were processed

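Per the labels' protocols, total RNA was isolated with a kit for fixed tissue, made into NuGen libraries and sequenced as single-end reads. The submitters' processing notes name TopHat, edgeR and mm9, with versions, counting and normalization not given in the sources used here. The deposited values are on a natural log scale, read from the values as the natural log of count + 1 after quantile normalization, and were divided by the natural log of 2 (0.693) to give log2. Read depth cannot be recovered, so no counting interval is given.

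The 4875 genes that reached a deposited value of 1 in 4 libraries or more were fitted with limma 3.58.1 in R 4.3.3 (limma-trend, 6 group means, 24 libraries, Benjamini-Hochberg over all genes tested, threshold 0.05). Classes were compared over both genotypes and within each. For genotype, the 3 libraries of each genotype and number were averaged, 4 means against 4, where the pooled prior weighed 152 degrees of freedom against 6 residual ones. Exact permutation, other pseudocounts (0.25 and 8), filters, centring, a detection covariate, a replicate block, a constant prior and left-out libraries were tried as alternatives.

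The named genes are the 5 enzymes, any called gene of the 4 pathway lists plus the 4 with the smallest p in each comparison over all libraries, and the 3 genes most correlated with each enzyme; 1 gene under this rule is not reported here. Cell type and zonation lists were used as marker checks. The members and lists were chosen with earlier results of these data known. No sequences or coordinates are printed.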

Additional observations from a re-analysis of the deposited data

Results flagged for a closer look

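In groups of 4 libraries, a value was singled out where its gap to the nearest other value, divided by the range of the group, exceeded Dixon's 95% critical value. This picked out 9 of the 24 groups of libraries of the 4 tested enzymes, where chance alone gives about 1 in 20, and 0 of the 8 sets of 4 means used between genotypes. In 7 of the 9 the library was the only one of its group above 0, and any such group meets the criterion. These were Cps1 at 9.22 in WT class 4 number 1, Asl at 1.90 in TGA class 4 number 2, Asl at 1.58 in WT class 4 number 1, Asl at 3.82 in WT class 8 number 2, Arg1 at 2.26 in TGA class 4 number 4, Arg1 at 5.33 in WT class 4 number 1 and Arg1 at 6.90 in WT class 8 number 3. The Arg1 value of 2.26 was the commonest value above 0 in its library. The other 2 of the 9 were low values: Ass1 at 0.45 in TGA class 8 number 3 and Arg1 at 4.93 in TGA class 2 number 1. WT class 4 number 1 appears for 3 enzymes and is a library with over 7000 genes above 0, as is TGA class 8 number 3.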

How the results depend on the processing

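Counts of members called are given first. For TGA against WT over all classes, 1 member (Cps1) was called, 0 with no filter and 0 by exact permutation, and 1 in each of the 8 fits without a number. Its difference ranged from 3.39 to 6.70 and its adjusted p from 0.000469 to 0.588 over 19 alternatives. Class 4 against class 2 called 1 member (Asl), 0 with no filter, 0 with a value of at least 1 in 12 libraries, a filter Asl does not pass, 0 by exact permutation, and between 0 and 2 without each number (2, Cps1 and Asl, without WT number 1). The adjusted p of Asl ranged from 0.00393 to 0.318. Where no member was called, 1 was called for TGA against WT in class 4 (between 0 and 1 without each number) and in class 8 without the libraries of over 7000 genes (Cps1), for class 8 against class 2 with a constant prior (Asl, adjusted p = 0.0110), and for class 4 against class 2 in TGA with the replicate block (Arg1, adjusted p = 0.0474), with a constant prior (Asl, 0.0410) and without those libraries (Arg1, 0.0315), between 0 and 1 without each number. The labels do not pair the libraries, and the data gave only a hint that numbers do: same-numbered libraries of a genotype correlated by -0.096 to 0.432 (median 0.033) after subtracting group means, 2 of 24 pairs above 0.1, and 12 of 24 libraries correlated best with their own number, which 2 of the 8 libraries compared with each carry. With the replicate block Cps1 stayed called between genotypes (adjusted p = 0.0139) and Asl between classes 4 and 2 (adjusted p = 0.0170). The only call of a member that the block changed was that of Arg1 for class 4 against class 2 in TGA.

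Uncalled differences changed sign as follows. Asl between genotypes was 0.72 without the libraries of over 7000 genes and -0.64 to 0.18 without each number. Without each number, class 8 against class 4 gave -0.83 to 1.33 for Ass1, -0.24 to 0.66 for Asl and -0.15 to 2.60 for Cps1, class 8 against class 2 in WT gave -2.19 to 0.30 for Arg1, and the genotype difference in class 4 against class 2 gave -0.22 to 1.2 for Asl. The causes were not tested. Counts over all genes moved more. TGA against WT called 24 genes, but 97 without the libraries of over 7000 genes, 42 with the covariate, 9 with no filter, 5 with a constant prior, 0 by exact permutation and 10 to 100 without each number. Class 4 against class 2 called 15, but 38 without those libraries, 23 under the block, 9 with the stricter filter, 5 with a pseudocount of 8, 4 when centred, 3 with the covariate, 0 with no filter or by exact permutation and 1 to 20 without each number. In TGA alone it called 41, but 84, 63, 2, 4, 1, 1 and 0 in that order of settings up to no filter, and 1 to 66 without each number. Within classes 2, 4 and 8, TGA against WT called 5, 1 and 1, but 15, 10 and 31 without those libraries and, without each number, 0 to 68, 0 to 8 and 0 to 4. Class 8 against class 2 called 1, but 4 with a constant prior and 0 with no filter. Since the depth is unknown, a value of 0 cannot be told from a low level.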
